A study of Mus musculus with 12 samples.

Results

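The SLC25 genes encode the carriers that move metabolites across the mitochondrial inner membrane. They were taken as every protein-coding row whose symbol is Slc25a followed by a number, without Slc25a17, and 46 of the 52858 rows of the table met this rule. Of these 46 carriers, 38 had enough reads to be tested and 8 did not. RNA was measured in 12 mouse heart libraries in 4 groups of 3. The C57-non-IR group and the C57-IR group came from C57BL/6J mice. The Slit2-non-IR group and the Slit2-IR group came from Slit2-Tg mice, heterozygotes that carry human Slit2 cDNA under the CMV promoter, made in C57 x CBA F1 oocytes and kept against the C57BL/6J background. All hearts came from male mice aged 3 to 5 months and were perfused outside the body on a Langendorff apparatus, the IR hearts with flow stopped for 20 min and restored for 40 min after a stable period, and the non-IR hearts with steady flow for 80 min. The perfused heart is cut off from circulating blood cells and from the body's nerves, the values are of whole heart tissue at a single time after reperfusion, and fewer cells of a type and less RNA per cell cannot be told apart in them.

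Most SLC25 proteins share a fold built from repeated pairs of membrane-spanning helices with a single substrate site that faces the matrix and the intermembrane space in turn. They exchange ADP for ATP, import phosphate and fatty acyl groups, pass reducing equivalents from the cytosol, and bring in cofactors. The heart makes nearly all of its ATP in mitochondria, and its adenine nucleotide translocator is among the most abundant mitochondrial proteins.

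The data show 1 carrier that rose after ischemia and reperfusion and a family whose other members did not pass the test in any comparison. Slc25a25, a calcium-regulated ATP-Mg/phosphate carrier that changes the adenine nucleotide content of the matrix, was 2.48-fold higher in IR hearts averaged over both genotypes on the FPKM + 1 scale. The transcripts that dominate the family, Slc25a4, Slc25a3, Slc25a11 and Slc25a5, had mean IR differences of -0.01 to 0.10 on the log2 scale. No carrier passed the test between Slit2-Tg and C57BL/6J hearts.

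Each library held 16601154 to 24841291 reads on genes. The 7 cardiomyocyte markers were present in every library at a summed 12552 to 19089 FPKM, the normalized level per length of transcript. Slit2-IR replicate 1 stood apart, with 1739 FPKM summed over 6 atrial markers against 31.4 to 243 in the other libraries. The 7 adipocyte markers summed to 97.0 to 100 FPKM in replicate 1 of each group except C57-non-IR and to 148 to 223 FPKM elsewhere. The 6 neutrophil markers summed to at most 1.07 FPKM and the 4 lung markers to at most 12.2 FPKM. The mouse Slit2 row lay between 0.0847 and 0.813 FPKM in all libraries with overlapping genotypes, and human Slit2 cDNA has no row of its own, so this row checks no label.

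Tested carriers ranged from 0.174 FPKM for the lowest value of Slc25a53 to 2492 FPKM for the highest of Slc25a4, and 4 carriers exceeded a mean of 100 FPKM. Slc25a4, the heart and muscle adenine nucleotide translocator, stood far above the rest. Its level was 2489, 2286 and 2335 FPKM in C57-non-IR hearts and 2282, 2448 and 2469 FPKM in C57-IR hearts. In Slit2-Tg hearts it was 2158, 2492 and 2130.1 FPKM without ischemia and 1968, 2329 and 2287 FPKM after it. The groups overlapped throughout, and the lowest value belonged to Slit2-IR replicate 1, the library with the high atrial markers. Slc25a4 made up 66.9% to 71.2% of the summed FPKM of the 46 carriers, and that sum itself lay between 2942 and 3510 FPKM.

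**Figure D1:**
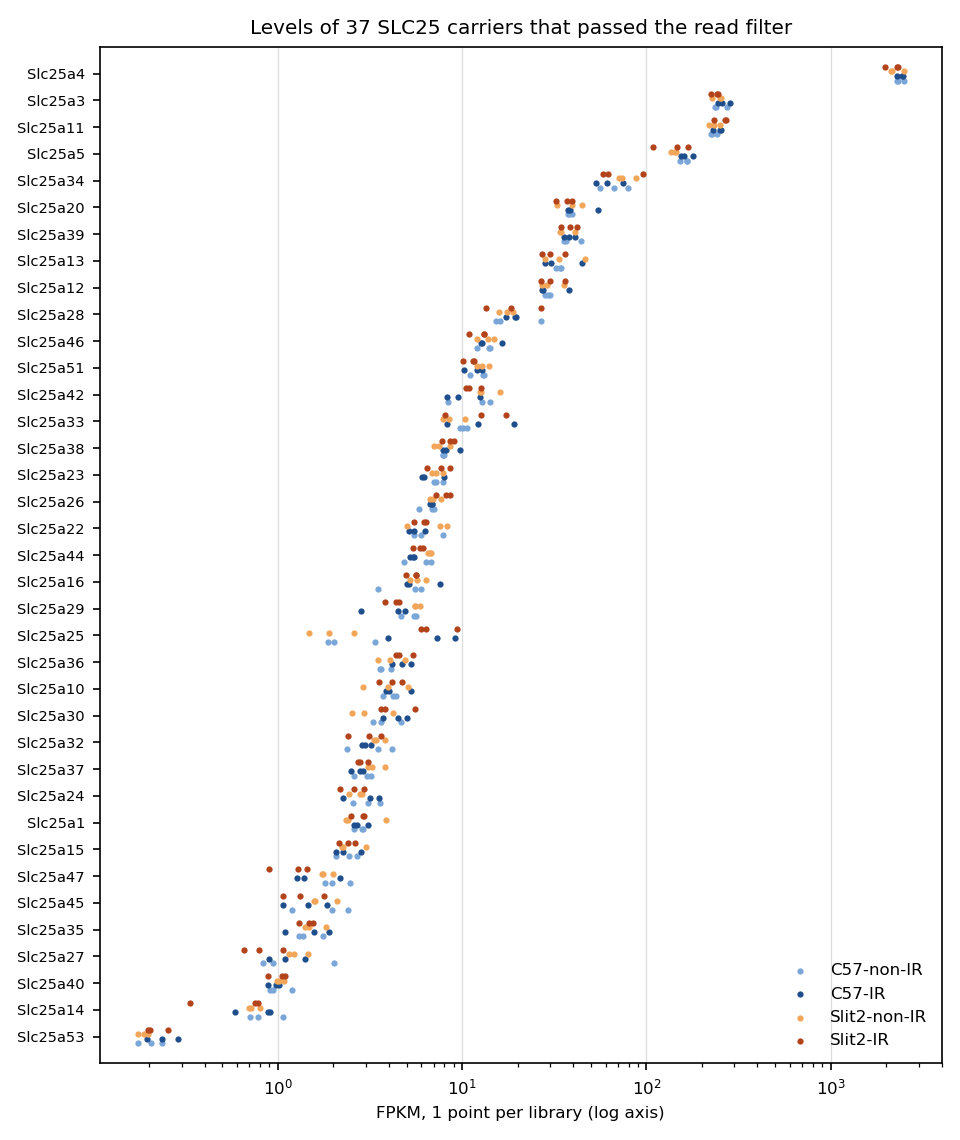
FPKM (log axis) of 37 of the 38 tested carriers, ordered by mean level, with 1 point per library and the 4 groups in separate colours. Slc25a4 lies at 1968 to 2492 FPKM, Slc25a3, Slc25a11 and Slc25a5 lie above 100 FPKM, and in the Slc25a25 row the IR points of both genotypes lie clear of the non-IR points.

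Slc25a3, which brings in the phosphate that ATP synthase uses, came next. It measured 275, 235 and 239 FPKM in C57-non-IR, 285, 256 and 244 FPKM in C57-IR, 253, 251 and 227 FPKM in Slit2-non-IR, and 224, 242 and 243 FPKM in Slit2-IR hearts. The Slit2-IR values all lay below the C57-IR values, by a log2 fold change of -0.14 (SE 0.10, limma Benjamini-Hochberg adjusted p = 0.9996), and the other pairs of groups overlapped. Slc25a11, the oxoglutarate carrier of the malate-aspartate shuttle, measured 242, 225 and 228 FPKM in C57-non-IR, 255, 249 and 229 FPKM in C57-IR, 251, 234 and 218 FPKM in Slit2-non-IR, and 269.6, 267 and 233 FPKM in Slit2-IR hearts. Its 4 groups overlapped, and the mean IR difference was 0.10 on the log2 scale (SE 0.07).

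Slc25a5, the more widely expressed adenine nucleotide translocator, measured 151, 167 and 167 FPKM in C57-non-IR and 160.1, 154 and 179 FPKM in C57-IR hearts. It measured 144, 143 and 136 FPKM in Slit2-non-IR and 109, 147 and 168 FPKM in Slit2-IR hearts. The Slit2-non-IR values lay below all C57-non-IR values, by a log2 fold change of -0.20 (SE 0.14, limma adjusted p = 0.9995), and the lowest library was again Slit2-IR replicate 1. A processed pseudogene copy of Slc25a5 has its own row at no more than 0.0412 FPKM, and how reads were divided between such copies is not stated. Slc25a31, the translocator of germ cells, stayed at 0 to 0.279 FPKM. The ratio of Slc25a4 to Slc25a5 was 13.6 to 18.1 over the 12 libraries.

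Slc25a34, a carrier without a settled substrate, came after these. It measured 56.2, 66.5 and 79.4 FPKM in C57-non-IR, 52.98, 74.7 and 61.1 FPKM in C57-IR, 70.6, 88.2 and 73.4 FPKM in Slit2-non-IR, and 62.2, 95.8 and 58.3 FPKM in Slit2-IR hearts. All groups overlapped. Slc25a20, which exchanges acylcarnitine for carnitine and so admits fatty acids to oxidation, followed. It measured 37.9, 37.8 and 39.4 FPKM in C57-non-IR, 54.4, 38.6 and 37.6 FPKM in C57-IR, 44.4, 39.4 and 32.8 FPKM in Slit2-non-IR, and 37.2, 39.5 and 32.4 FPKM in Slit2-IR hearts. Here C57-IR replicate 1 was the highest library, and it was also the highest of the 12 libraries for 9 of the 38 tested carriers.

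A further 3 carriers had means between 20 and 100 FPKM. Slc25a39, a mitochondrial glutathione importer, ranged from 33.9 to 44.1 FPKM. The aspartate/glutamate carriers Slc25a12 and Slc25a13 ranged from 26.7 to 38.2 and from 27.2 to 46.6 FPKM, and the ratio of the first to the second lay between 0.771 and 1.21. The close relative of Slc25a39, Slc25a40, had a mean of 1.002 FPKM, and the ratio of the pair was 31.8 to 43.2. Of the mitoferrins that import iron, Slc25a28 exceeded the erythroid form Slc25a37 by 4.57 to 9.92 times.

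The 27 carriers with means between 1 and 20 FPKM included all 8 tested cofactor and nucleotide carriers. Among these were Slc25a51, the NAD carrier, at 10.1 to 14.0 FPKM, Slc25a42, which carries coenzyme A, at 8.30 to 16.0 FPKM, and Slc25a26, the importer of S-adenosylmethionine, at 5.81 to 8.63 FPKM. Slc25a46, which sits in the outer membrane and acts in membrane dynamics, ranged from 10.8 to 16.4 FPKM. The citrate carrier Slc25a1 and the dicarboxylate carrier Slc25a10, both linked to lipid synthesis and gluconeogenesis, had means of 2.81 and 4.15 FPKM. The amino acid carriers of this range were the glycine carrier Slc25a38, the glutamate carrier Slc25a22, the branched-chain amino acid carrier Slc25a44 and the ornithine carrier Slc25a15, with means of 8.16, 6.26, 5.95 and 2.42 FPKM. Slc25a16, linked to coenzyme A, and Slc25a32, linked to folate and flavin, had means of 5.51 and 3.22 FPKM. Slc25a30, Slc25a45 and Slc25a35 had means of 3.95, 1.61 and 1.501 FPKM.

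Means under 1 FPKM were found for 10 carriers, and 8 of these did not reach the equivalent of 10 reads in 3 libraries and were not tested. These 8 were Slc25a2, Slc25a18, Slc25a21, Slc25a31, Slc25a41, Slc25a43, Slc25a48 and Slc25a54. They include the glutamate carrier Slc25a18, the oxodicarboxylate carrier Slc25a21 and Slc25a48, linked to choline. Slc25a2, an ornithine carrier, reached the highest value among them, 0.455 FPKM in 1 library of Slit2-IR. Slc25a41, the ATP-Mg/phosphate carrier without a calcium-binding domain, had 1 read in the 12 libraries together, and Slc25a54 was at 0 in all of them. The low carriers that were tested were Slc25a14 at 0.333 to 1.07 FPKM and Slc25a53 at 0.174 to 0.288 FPKM.

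Within groups, the relative spread was smallest for 3 of the 4 most abundant carriers. The pooled coefficient of variation was 6.41% for Slc25a11, 7.04% for Slc25a3 and 7.05% for Slc25a4. It was largest for Slc25a25 at 31.9%, the uncoupling-protein-like Slc25a27 at 31.6% and Slc25a33, a pyrimidine nucleotide carrier, at 28.7%. Slc25a33, named here after its values were seen, was highest in replicate 2 and lowest in replicate 3 of both IR groups, at 12.2, 19.2 and 8.32 FPKM in C57-IR and 12.6, 17.4 and 8.11 FPKM in Slit2-IR hearts. Its non-IR values were 10.1, 9.77 and 10.7 FPKM in C57BL/6J and 7.87, 10.4 and 8.48 FPKM in Slit2-Tg hearts, and its mean IR difference of 0.35 (log2, SE 0.20) did not pass the test (limma adjusted p = 0.444).

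The first comparison asked which carriers differ after ischemia and reperfusion. Slc25a25 was the carrier that rose. Its level was 2.02, 3.37 and 1.87 FPKM in C57-non-IR hearts and 3.97, 9.12 and 7.35 FPKM in C57-IR hearts. In Slit2-Tg hearts it was 1.47, 1.89 and 2.58 FPKM without ischemia and 6.01, 9.35 and 6.33 FPKM after it. Every IR library, at 3.97 to 9.35 FPKM, lay above every non-IR library, at 1.47 to 3.37 FPKM, and the lowest IR value was that of C57-IR replicate 1. Group means were 2.42 ± 0.824 against 6.81 ± 2.61 FPKM in C57BL/6J and 1.98 ± 0.558 against 7.23 ± 1.84 FPKM in Slit2-Tg hearts (SD, n = 3), which are ratios of 2.81 and 3.65. These levels rest on 240 to 1769 reads per library.

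**Figure D2:**
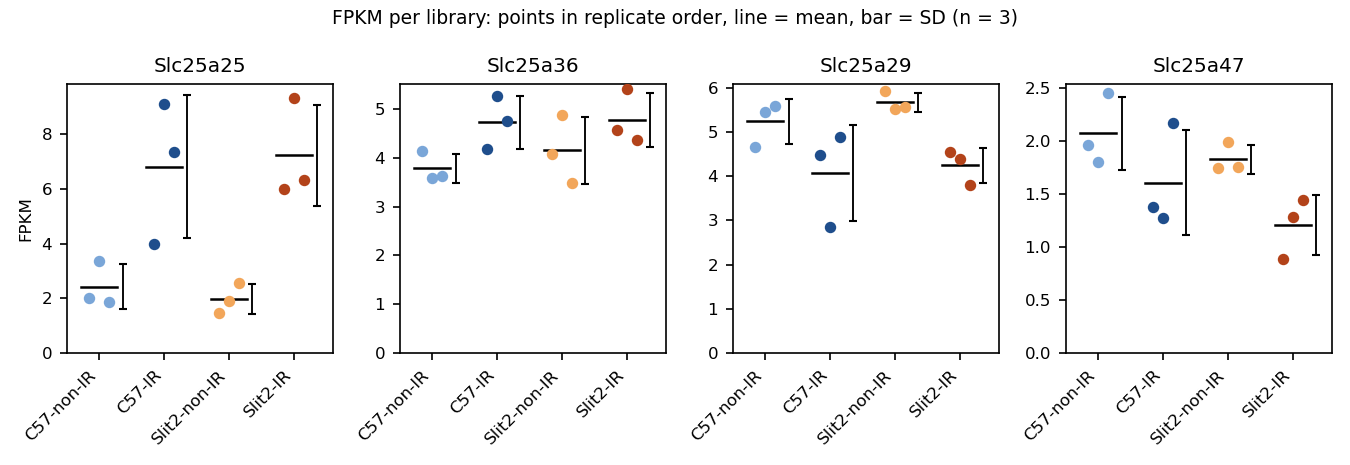
FPKM per library of Slc25a25, Slc25a36, Slc25a29 and Slc25a47 in the 4 groups (points in replicate order, line the mean, bar the SD, n = 3, axes from 0). Slc25a25 is higher in all 6 IR libraries than in all 6 non-IR libraries, while the ranges over the non-IR and IR libraries of the other 3 genes overlap.

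On the log2(FPKM + 1) scale, the mean IR difference of Slc25a25 over both genotypes was 1.31 (SE 0.19, interval of 0.89 to 1.72 at 95%), with a limma Benjamini-Hochberg adjusted p of 0.00426 over 15240 genes. It was higher in 6 of 6 IR hearts. The adjusted p stayed between 0.000575 and 0.0173 under the other settings and when any 1 library was left out. Within genotypes the difference was 1.16 (SE 0.27, adjusted p = 0.106) in C57BL/6J hearts and 1.46 (SE 0.27, adjusted p = 0.0447) in Slit2-Tg hearts. In this main fit it therefore passed the threshold in Slit2-Tg hearts alone. The difference between these values, the interaction of Slit2 and IR, was 0.30 (SE 0.38, adjusted p = 0.9998), with an interval of -0.53 to 1.14. The call within Slit2-Tg hearts was close to the threshold. It was kept without C57-IR replicate 1 or C57-IR replicate 2 and lost when any other single library was left out, at adjusted p-values of up to 0.164, and without Slit2-IR replicate 1, the library with the high atrial markers, the difference was 1.56 (adjusted p = 0.133). In C57BL/6J hearts the difference passed without C57-IR replicate 1, at 1.45 (adjusted p = 0.0145). It also passed there when the replicate number was added to the fit (limma adjusted p = 0.0275).

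Slc25a25 (ENSMUSG00000026819) lies at chr2:32414487-32451445 on the minus strand of mm10 and overlaps Naif1 on the opposite strand. Reads of overlapping genes cannot be told apart where strand is not used, and the use of strand is not given in the sources used here. Naif1 had group means of 0.813 to 0.991 FPKM and a mean IR difference of -0.04 (log2, limma adjusted p = 0.895). The gene has 12 transcripts in GENCODE M21 and 3 start sites in the RefSeq promoter table (GRCm38.p6). Alternative first exons are known for it. The gene-level values do not tell which start the reads came from.

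Promoter sequences are shown for Slc25a25 and for Slc25a36, the other carrier with higher values in IR hearts at the unadjusted threshold, because both hold the full cyclic AMP response element. This choice was made with the matches and IR differences known, and Slc25a36 did not pass after adjustment. The entries of Slc25a29 and Slc25a47, lower in IR hearts at the unadjusted threshold, do not hold the element. Promoter entries were matched for 35 of the 46 carriers, 45 entries in all. Each entry, 250 bases before to 50 after the start, was searched on both strands. The full element TGACGTCA stood in 2 of the 45 carrier entries, 4.44%, against 1.79% of all 32851 entries in the table. The 250 bases before the start are printed 5′ to 3′ on the strand of the gene, with the element in capitals. The first 2 lines are different starts of Slc25a25, of which only the second holds it. A start between them, chr2:32431152-32431401, does not hold it and is not printed.
Slc25a25, outer start, chr2:32451471-32451720, minus strand: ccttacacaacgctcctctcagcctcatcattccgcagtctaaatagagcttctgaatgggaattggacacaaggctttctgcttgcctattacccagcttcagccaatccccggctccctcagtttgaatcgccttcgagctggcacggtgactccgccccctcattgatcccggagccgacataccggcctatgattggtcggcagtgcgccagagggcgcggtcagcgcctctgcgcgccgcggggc
Slc25a25, inner start, chr2:32424067-32424316, minus strand: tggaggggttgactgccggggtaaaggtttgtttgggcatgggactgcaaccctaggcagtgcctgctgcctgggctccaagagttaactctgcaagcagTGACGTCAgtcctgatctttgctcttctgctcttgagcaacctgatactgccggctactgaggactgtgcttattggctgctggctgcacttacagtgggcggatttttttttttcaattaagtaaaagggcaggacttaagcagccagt
Slc25a36, chr9:97111042-97111291, minus strand: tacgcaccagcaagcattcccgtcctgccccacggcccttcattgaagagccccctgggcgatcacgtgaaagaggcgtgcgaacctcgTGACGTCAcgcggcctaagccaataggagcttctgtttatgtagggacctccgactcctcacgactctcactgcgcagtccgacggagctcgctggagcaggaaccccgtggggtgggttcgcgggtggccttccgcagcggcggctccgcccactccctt

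The element began 150 bases before the inner start of Slc25a25 and 161 bases before the start of Slc25a36. The inner start lay 27404 bases from the outer one, within the gene. The shorter TGACG, which lies inside TGACGTCA on both strands, was in 28.9% of carrier entries against 20.8% of all. The AP-1 motif TGACTCA was in 2.22% against 5.2%, the estrogen-related receptor half-site AAGGTCA in 2.22% against 4.72%, the E-box CACGTG in 17.8% against 7.15%, and the heat shock core GAANNTTC in 0% against 7.86%. These matches describe the letters in the window and not a binding site.

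The other tested ATP-Mg/phosphate carriers, Slc25a23 and Slc25a24, did not pass the test. Slc25a23 ranged from 6.06 to 8.56 FPKM and Slc25a24 from 2.17 to 3.56 FPKM over the 12 libraries, and their mean IR differences were -0.04 (SE 0.09) and -0.05 (SE 0.10) on the log2 scale. Slc25a25 made up 13.6% to 24.2% of the summed FPKM of these 3 genes in non-IR libraries and 27.9% to 49.99% in IR libraries. The sum of the 3 was 10.8 to 13.9 FPKM without ischemia and 14.2 to 18.7 FPKM after it. The shares of the non-IR and IR libraries did not overlap, and in Slit2-IR replicate 2 Slc25a25 nearly equalled the other 2 genes together.

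**Figure D3:**
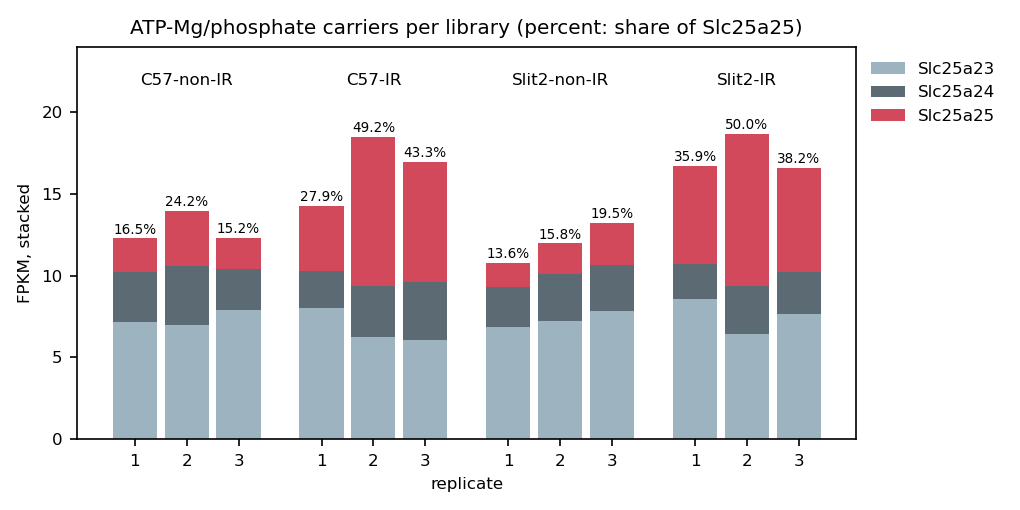
Stacked FPKM of Slc25a23, Slc25a24 and Slc25a25 in each of the 12 libraries, with the share of Slc25a25 in percent above each bar. The share is 13.6% to 24.2% in the 6 non-IR libraries and 27.9% to 49.99% in the 6 IR libraries, while the Slc25a23 and Slc25a24 parts overlap between groups.

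Over the 38 tested carriers, 1 was called in the mean IR difference, where 3.49% of all tested genes were, and 4 had an unadjusted p under 0.05, where 15.9% of all genes had. In Slit2-Tg hearts 1 carrier was called (0.525% of all genes) and 3 had an unadjusted p under 0.05 (11.2%). In C57BL/6J hearts limma called 0 carriers (0.459% of all genes), with 1 at an unadjusted p under 0.05 (8.96%), and voom on the recovered reads also called 0, with 3 at the unadjusted threshold. These unadjusted counts depended on single libraries. Without C57-non-IR replicate 1 they were 9 in the mean IR difference, 5 in Slit2-Tg hearts and 6 in C57BL/6J hearts. In Slit2-Tg hearts the count was 1 without Slit2-non-IR replicate 2. In C57BL/6J hearts it was 3 without C57-IR replicate 1 or 3, and 2 without Slit2-non-IR replicate 2 or 3, which enter that comparison through the shared spread. The median log2 difference of the carriers was 0.00 in C57BL/6J and -0.05 in Slit2-Tg hearts, against 0.00 and 0.01 for all tested genes.

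Next to Slc25a25, the carriers with an unadjusted p under 0.05 in the mean IR difference were Slc25a29, Slc25a47 and Slc25a36, and none passed after adjustment. Slc25a29, which carries basic amino acids, measured 4.66, 5.46 and 5.59 FPKM in C57-non-IR, 4.49, 2.84 and 4.88 FPKM in C57-IR, 5.92, 5.52 and 5.56 FPKM in Slit2-non-IR, and 4.56, 4.38 and 3.80 FPKM in Slit2-IR hearts. Slit2-IR hearts lay below Slit2-non-IR hearts without overlap, and the C57BL/6J groups overlapped. The mean IR difference was -0.33 (SE 0.10, limma adjusted p = 0.117).

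Slc25a47, a carrier best known from liver, measured 1.97, 1.80 and 2.46 FPKM in C57-non-IR, 1.38, 1.27 and 2.18 FPKM in C57-IR, 1.74, 1.99 and 1.76 FPKM in Slit2-non-IR, and 0.891, 1.28 and 1.44 FPKM in Slit2-IR hearts. Only C57-IR replicate 3 among the IR libraries reached the non-IR range. The mean IR difference was -0.31 (SE 0.10, limma adjusted p = 0.139). Without C57-IR replicate 3 it was -0.38 and passed, with an adjusted p of 0.0461.

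Slc25a29 and Slc25a47 are neighbours on chromosome 12 and point away from each other. Their gene models in the deposited table lie 162 bases apart, with no other gene between them, although their RefSeq starts are 15252 bases apart. The next tested protein-coding genes on either side, Yy1 and Wars, had mean IR differences of -0.00 and -0.08 (limma adjusted p = 0.987 and 0.753). Of the other carriers, the pairs Slc25a41 and Slc25a23, Slc25a54 and Slc25a24, and Slc25a43 and Slc25a5 also lay within 100000 bases of each other, and in each of these pairs the first was below the read filter and the second was expressed.

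Slc25a36, a pyrimidine nucleotide carrier, measured 4.13, 3.59 and 3.63 FPKM in C57-non-IR and 4.17, 5.26 and 4.74 FPKM in C57-IR hearts, with no overlap. In Slit2-Tg hearts it measured 4.08, 4.88 and 3.49 FPKM without ischemia and 4.57, 5.40 and 4.36 FPKM after it, and these groups overlapped. The mean IR difference was 0.21 (SE 0.09, limma adjusted p = 0.242). Slc25a36 overlaps the antisense gene Gm16185, whose group means were 0.657 to 0.854 FPKM and whose mean IR difference was -0.03.

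By role, the ATP-Mg/phosphate group held the single call after IR. All 3 tested adenine nucleotide and phosphate carriers had mean IR differences between -0.01 and 0.01 on the log2 scale. Of the 9 tested amino acid and glutathione carriers 3 were higher and 6 lower in the mean IR difference, and of the 8 cofactor and nucleotide carriers 4 were higher and 4 lower, none past the adjusted threshold. Slc25a20 was at 0.04 (SE 0.11). The iron carriers were at 0.05 for Slc25a28 and -0.13 for Slc25a37, and the uncoupling-protein-like Slc25a30, Slc25a14 and Slc25a27 were at 0.25, -0.08 and -0.18. The groups did not overlap for 2 of 38 carriers in C57BL/6J hearts, where 13.8% of all tested genes did not, and for 8 of 38 in Slit2-Tg hearts, against 16.9%. In Slit2-Tg hearts the 6 lower carriers were Slc25a27, Slc25a29, Slc25a37, Slc25a44, Slc25a47 and Slc25a51, and the 2 higher were Slc25a25 and Slc25a53. The highest value of Slc25a37, 3.81 FPKM, was in Slit2-non-IR replicate 2, the library with the highest blood and erythroid markers.

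**Figure D4:**
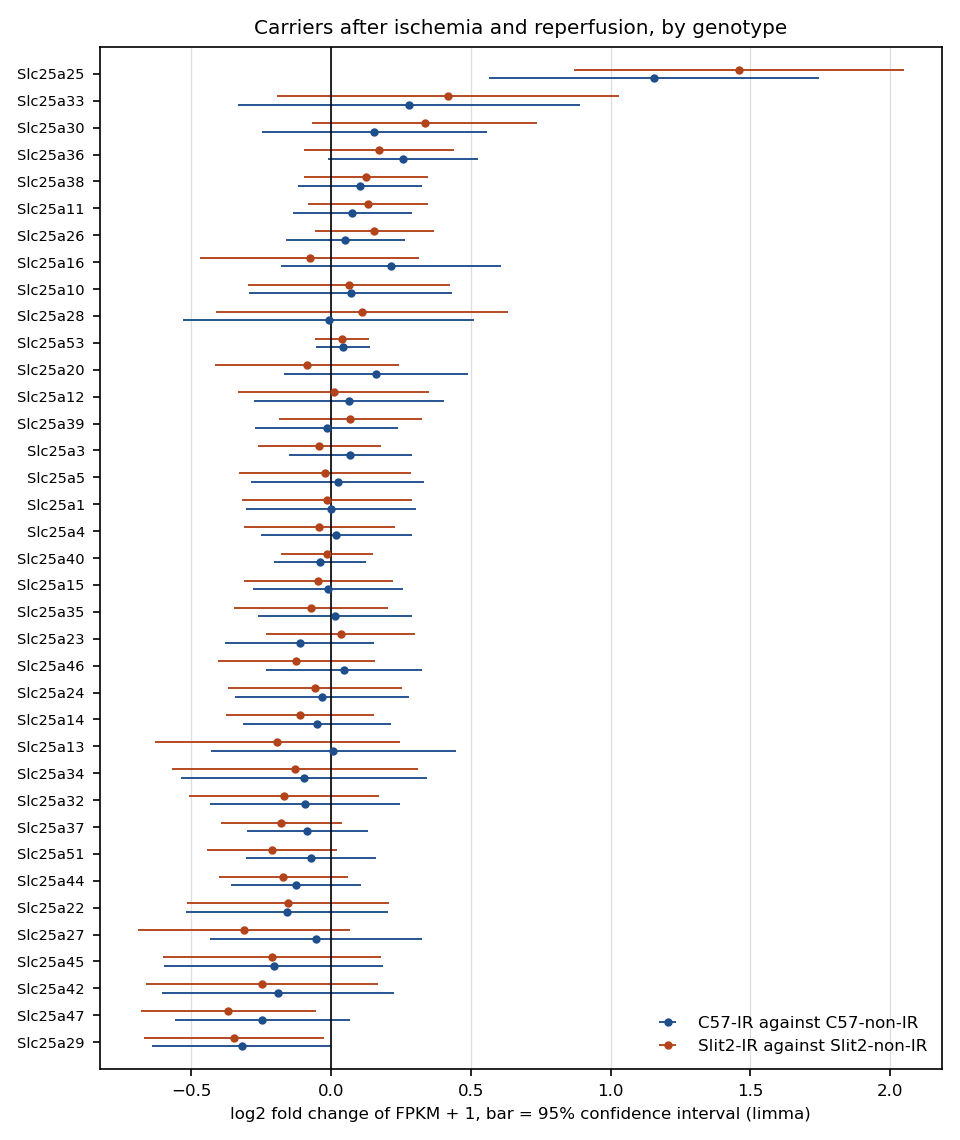
Log2 fold change of FPKM + 1 after ischemia and reperfusion for 37 of the 38 tested carriers in C57BL/6J hearts (blue) and Slit2-Tg hearts (red), with 95% confidence intervals from limma. Slc25a25 lies at 1.16 and 1.46, apart from the other 36 carriers drawn, which lie between -0.37 and 0.42.

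The intervals limit what these data could miss. The median half-width of the 95% interval was 0.31 on the log2 scale for a comparison of 3 hearts with 3 and 0.22 for the mean IR difference. For the mean IR difference, the interval lay within a log2 change of 1 in either direction for 37 of 38 carriers and within 0.5 for 32.

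The direction of small differences depended on scaling. When each library was set to the same sum of FPKM, carriers split into 8 higher and 30 lower in the mean IR difference, against 16 and 22 as deposited, and their median moved from -0.03 to -0.09 while that of all tested genes moved from 0.00 to -0.05. With the mitochondrially encoded genes, which took 19.7% to 26.0% of reads, left out of that sum, the split was again 8 higher and 30 lower, with medians of -0.09 for the carriers and -0.06 for all tested genes.

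The second comparison asked how Slit2-Tg hearts differ from C57BL/6J hearts. No carrier passed the test, with or without ischemia. In Slit2-non-IR against C57-non-IR hearts limma called 0 of 38 carriers (0.0394% of all genes), with 0 at an unadjusted p under 0.05 (3.19%). In Slit2-IR against C57-IR hearts it called 0 (0.0459%), with 0 at the unadjusted threshold (3.16%). Voom gave 0 and 0 in both comparisons. With each library set to the same sum of FPKM, 0 were called, with 1 at the unadjusted threshold without ischemia and 2 after it. With the mitochondrially encoded genes left out of that sum, these counts were 0. The interaction of Slit2 and IR was called for 0 carriers, with 0 at the unadjusted threshold (0% and 1.86% of all genes), and voom gave the same counts.

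The carriers as deposited had no common direction between the genotypes. They were higher in Slit2-Tg for 22 and lower for 16 without ischemia, and higher for 16 and lower for 22 after it, with medians of 0.01 and -0.02. With each library set to the same sum of FPKM, 30 were higher and 8 lower in both comparisons. The carrier medians were then 0.11 and 0.10, against 0.07 and 0.09 for all tested genes. With the mitochondrially encoded genes left out of that sum, 26 were higher and 12 lower without ischemia, and 19 were higher and 19 lower after it. Here the medians were 0.07 and -0.01 for the carriers and 0.04 and 0.01 for all tested genes. The range of log2 differences as deposited was -0.21 to 0.23 and -0.24 to 0.20. Slc25a5 was the carrier whose non-IR groups did not overlap (9.2% of all tested genes did not). After IR these were Slc25a3, lower in Slit2-IR, and Slc25a26, higher in Slit2-IR by 0.20 (SE 0.10, limma adjusted p = 0.9996), against 6.47% of all tested genes. All 38 intervals lay within a log2 change of 1 in both comparisons, and 29 and 28 lay within 0.5. Slc25a25 itself differed by -0.19 (SE 0.27) without ischemia and 0.11 (SE 0.27) after it.

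**Figure D5:**
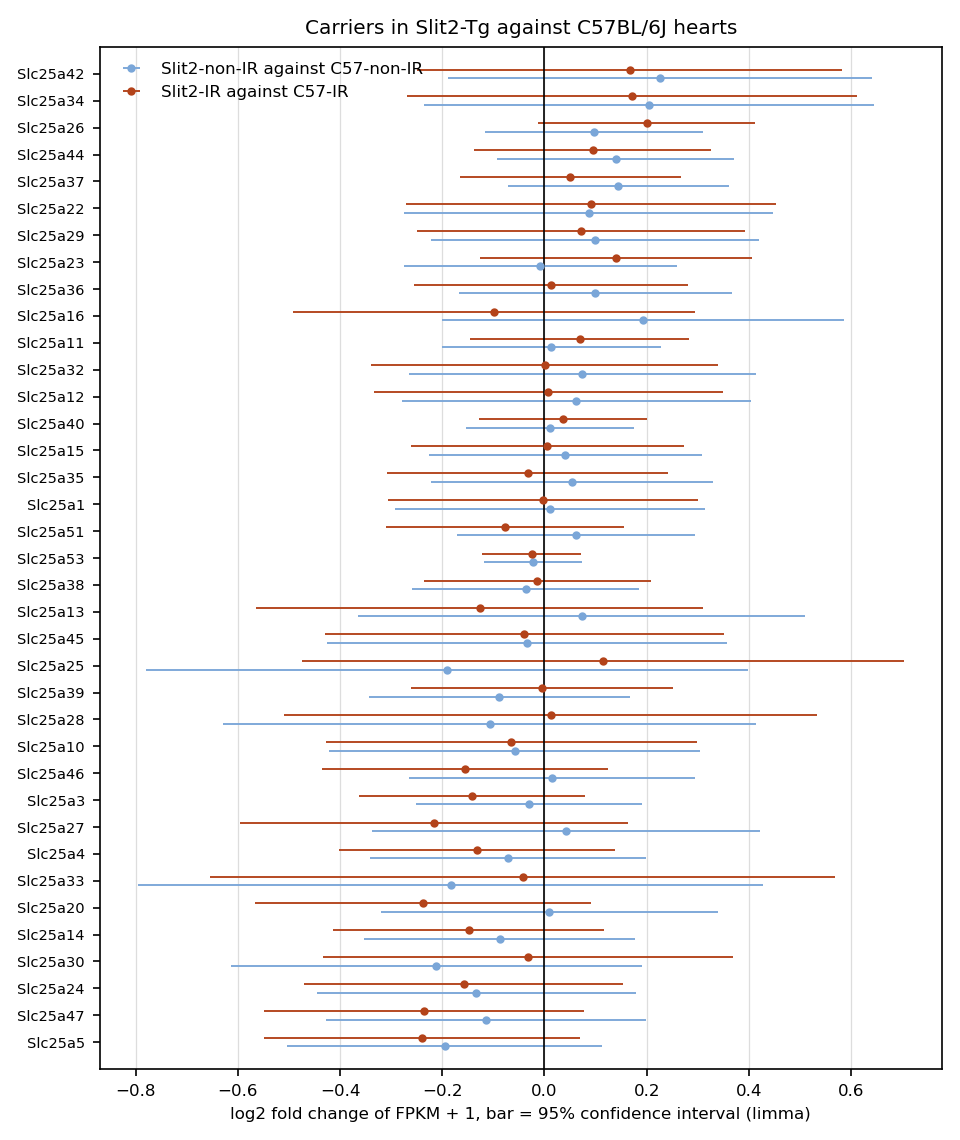
Log2 fold change of FPKM + 1 in Slit2-Tg against C57BL/6J hearts without ischemia (light blue) and after ischemia and reperfusion (red) for 37 of the 38 tested carriers, with 95% confidence intervals from limma. All points lie between -0.24 and 0.23, and every interval includes 0.

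Other genes of mitochondrial transport and of its regulation gave a frame for the carriers. Family members with other symbols, of which 4 of 5 were tested, had no call. Ucp2 differed by -0.55 (SE 0.21) in Slit2-non-IR against C57-non-IR hearts and Ucp3 by 0.76 (SE 0.34) in Slit2-IR against C57-IR hearts, with limma adjusted p-values of 0.9995 and 0.9996. The 13 genes that import carriers into the inner membrane had no call either. As deposited, 10 of them were lower in Slit2-Tg than in C57BL/6J hearts without ischemia and 10 after it. Of all 15240 tested genes, 7784 and 7632 were lower. The directions of the import genes under common sums were not computed. Of the lower import genes, 3 without ischemia (3.19% of all genes) and 1 after it (3.16%) had an unadjusted limma p under 0.05. The genotypes did not overlap for 4 genes without ischemia (9.2%) and 2 after it (6.47%), all lower in Slit2-Tg. Between genotypes their smallest p-value belonged to Tomm22, a receptor of the outer membrane translocase, at -0.37 (SE 0.13) without ischemia and -0.40 (SE 0.13) after it in Slit2-Tg against C57BL/6J hearts (limma adjusted p = 0.9995 and 0.9996). Of the 20 other transport genes, which include the pyruvate carrier and the calcium uniporter, none was called, and Sfxn2, a sideroflexin, had the smallest p after IR at -0.19 (SE 0.07, adjusted p = 0.215).

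Among 12 regulators of mitochondrial genes, Pprc1, a coactivator related to PGC-1, came nearest to the threshold after IR. Its mean IR difference was 0.29 (SE 0.07, limma adjusted p = 0.0587), and that of the deacetylase Sirt1 was 0.54 (SE 0.16, adjusted p = 0.0937). Ppargc1a, the coactivator PGC-1 alpha, was at -0.67 (SE 0.19) in Slit2-IR against C57-IR hearts, with an unadjusted limma p of 0.00425 and an adjusted p of 0.9996.

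Nuclear genes with symbols like those of respiratory chain subunits, Atp5sl among them, had 82 tested of 84. Whether each encodes a subunit was not checked, and they are called subunits here. As deposited, they were lower in Slit2-Tg for 75 and higher for 7 both without ischemia and after it. Their medians were -0.15 and -0.10, against -0.003 and -0.0002 for all tested genes. With the same sum of FPKM in each library, 51 were lower and 31 higher without ischemia, and 18 lower and 64 higher after it. Their medians were then -0.03 and 0.05, against 0.07 and 0.09 for all tested genes. With the mitochondrially encoded genes left out of the sum, 66 were lower and 16 higher without ischemia and 74 were lower and 8 higher after it. The medians were -0.09 and -0.08 for the subunits and 0.04 and 0.01 for all tested genes. None was called by limma, with 0 at an unadjusted p under 0.05. In the mean IR difference the subunits split 41 to 41 with a median of 0.00 as deposited. With the same sum, 81 were lower and 1 higher, with or without the mitochondrially encoded genes in it. The subunit medians were then -0.09 and -0.09, against -0.05 and -0.06 for all tested genes. As deposited, the 13 mitochondrially encoded genes had medians of -0.18 and -0.34 in Slit2-Tg against C57BL/6J hearts, with a median SE of 0.29 per gene. Limma called 0 of them, with 0 at an unadjusted p under 0.05, and their medians under common sums were not computed. Whether adipose, atrial or other tissue in single libraries took part in any of these differences was not tested.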

How the data were processed

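RNA sequencing libraries (NEBNext Ultra, paired-end Illumina HiSeq) were made from 12 mouse hearts, which the labels call independent samples, 3 per group. Genotype came from the labels, and non-IR or IR from the letters of each title. The authors deposited FPKM per gene and library. HISAT2 and mm10 are named in the submitters' processing notes, and the counting tool, annotation release and strand setting are not given in the sources used here. The product of FPKM and gene length came in whole steps of 1 size per library for 100% of values (tolerance 0.05 of a step), the steps followed median-of-ratios size factors, and reads were recovered from them. There were 0 per-library columns left unused.

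Tested genes, 15240 in all, had values worth 10 or more reads at median depth in 3 or more libraries. The main test was limma's two-sided moderated test (limma 3.58.1, R 4.3.3, variance trend) on log2(FPKM + 1), which understates changes of low genes, over 4 group means. Benjamini-Hochberg adjustment ran over all tested genes, with a threshold of 0.05, and 6 contrasts were made. The alternatives were a pseudocount of 0.1, other filters, common sums of FPKM, voom on recovered reads, the groups compared alone, a replicate block and leaving out each library. Scripts were tested on simulated data.

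Members and lists were chosen with earlier results of these data known. Library values are given for carriers with an unadjusted p under 0.05 in any contrast and for the 6 with the highest mean FPKM. For the other lists, genes past the threshold are named, else those with the smallest p, of which the text gives a selection. Values of 1 tested carrier are not reported here, though it is part of the counts and fits. Same-numbered libraries deviated together for all 3 pairs in Slit2-IR against Slit2-non-IR (correlations of 0.143 to 0.294) and Slit2-IR against C57-IR hearts (0.154 to 0.362), each over 0.1. They also did in Slit2-non-IR and C57-IR hearts (0.191 to 0.586), which no contrast compares directly. This pairing rests on the correlations alone, and the main fit did not use it. The replicate block changed no carrier call in Slit2-IR against Slit2-non-IR or Slit2-IR against C57-IR hearts. Over all tested genes, calls went from 80 to 202 in the first and from 7 to 9 in the second.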

Additional observations from a re-analysis of the deposited data

How the results depend on the processing

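The Slc25a25 call in the mean IR difference was kept under all 7 other settings and all 12 fits that left out 1 library. The count of called carriers there was 1 to 2 when 1 library was left out, the second being Slc25a47 without C57-IR replicate 3. For IR in Slit2-Tg hearts the count was 0 with no read filter and 0 with a common sum of FPKM without mitochondrially encoded genes (Slc25a25 adjusted p = 0.122 and 0.0547), and 0 to 1 when 1 library was left out. In C57-IR against C57-non-IR hearts the replicate block gave 1 called carrier (Slc25a25, adjusted p = 0.0275), and leaving out 1 library gave 0 to 1. There only 2 of 3 same-numbered pairs correlated over 0.1 and the lowest was 0.083, so the label numbers were not taken as a pairing. Whether those hearts were paired is not known. With the replicate block the Slit2-Tg call had an adjusted p of 0.0126 and the mean IR call one of 0.0012, and the block changed no other carrier call. Over all tested genes, the block moved the calls from 532 to 773 in the mean IR difference. In Slit2-non-IR against C57-non-IR hearts it moved them from 6 to 2. The other counts of called carriers stayed at 0 in Slit2-Tg against C57BL/6J hearts and in the interaction under every setting. Common sums of FPKM moved the medians of the carriers to as low as -0.15 and as high as 0.11. The medians of all tested genes were -0.07 and 0.07 in those same fits. Why the sums differed between libraries was not tested. With 3 libraries per group, smaller changes than the intervals given could not be seen, and carriers under the read filter could not be tested.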
